A study of Rattus norvegicus with 15 samples.

Results

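Glucagon and 7 further genes that mark the alpha cell (Gcg, Irx1, Irx2, Pou3f4, Ttr, Gc, Slc38a5 and Dpp4) were followed in isolated rat islets. They were chosen by symbol, as the alpha cell hormone with its transcription factors and markers, and all 8 were found among the 28914 genes of the count table. The islets came from 15 Lewis rats, 10 weeks after 90% partial pancreatectomy (Px, 10 rats) or a sham operation (Sham, 5 rats), and polyadenylated RNA was sequenced. The labels give each rat an averaged glucose reading from before it was killed, with no unit: 88 to 96 in Sham, 104 to 211 in 7 Px rats (lower-glucose Px here) and 416 to 464 in the other 3 (higher-glucose Px). No genetic change or further agent is given for any group, an age of 4 to 5 weeks is stated without the point of the study it refers to, and the islets that Px rats gave come from the small remnant left by surgery.

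Alpha cells are the glucagon-secreting cells of the islet. They make proglucagon from Gcg, and the convertase encoded by Pcsk2 cuts it to glucagon, which raises the release of glucose by the liver when blood glucose is low. Iroquois (Irx1, Irx2) and POU (Pou3f4) homeodomain factors mark the lineage, and amino acids taken up by transporters such as Slc38a5 drive both glucagon secretion and alpha cell growth.

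The regions upstream of 3 members are shown because Gcg, Slc38a5 and Gc were the most abundant of the 8 and Slc38a5 is the 1 member that differed between the Px groups (values below). Each is the 250 bases before the RefSeq gene start in the GRCr8 build, read 5′ to 3′ on the gene's strand, and capitals mark the tetramer TAAT on either strand (ATTA on the other), the core that many homeodomain proteins bind. Overlapping matches merge into 1 run of capitals.
Gcg (chr3:67531534-67531783, minus strand): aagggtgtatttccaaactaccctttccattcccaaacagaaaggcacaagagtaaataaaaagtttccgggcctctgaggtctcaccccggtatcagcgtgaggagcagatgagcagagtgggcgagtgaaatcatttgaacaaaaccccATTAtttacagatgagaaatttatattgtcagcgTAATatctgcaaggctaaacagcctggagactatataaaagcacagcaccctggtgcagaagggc
Slc38a5 (chrX:16894471-16894720, minus strand): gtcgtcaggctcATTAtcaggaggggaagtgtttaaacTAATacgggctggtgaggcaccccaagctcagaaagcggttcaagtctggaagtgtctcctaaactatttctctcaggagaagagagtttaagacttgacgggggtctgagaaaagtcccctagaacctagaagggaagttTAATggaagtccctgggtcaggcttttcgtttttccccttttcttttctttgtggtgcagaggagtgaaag
Gc (chr14:18916005-18916254, plus strand): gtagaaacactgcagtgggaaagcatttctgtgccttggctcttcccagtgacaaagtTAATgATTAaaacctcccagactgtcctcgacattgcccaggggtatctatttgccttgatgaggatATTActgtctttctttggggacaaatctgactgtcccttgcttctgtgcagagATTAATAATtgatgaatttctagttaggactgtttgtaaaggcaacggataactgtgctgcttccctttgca
The tetramer occurs 2 times upstream of Gcg, 3 times upstream of Slc38a5 and 6 times upstream of Gc, and 57% of 33469 RefSeq upstream regions of this length hold it at least once. TATAAA, searched on both strands (TTTATA on the other), occurs upstream of Gcg, with its first base 32 bases before the start on the gene's strand and a reverse-strand match at 80 bases, and in 12.9% of all regions. It was found in none of the other 7 members' regions. The POU octamer ATGCAAAT, searched on both strands, was found in none of the 8, against 1.56% of all regions. The upstream regions of Irx1 and Irx2 differ from the 3 printed in base composition, with 72.8% and 71.6% G and C against 44.8% for Gcg, 47.2% for Slc38a5 and 43.2% for Gc.

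Sham libraries held 12.2 to 18.4 M counts each, against 19.1 to 31.6 M in lower-glucose Px and 22.3 to 33.4 M in higher-glucose Px. A list of 12 acinar markers, mostly digestive-enzyme genes of the exocrine pancreas but with the transcription factor Rbpjl and the mast cell carboxypeptidase Cpa3, took 0.939% to 13.5% of the counts in Sham and 17.1% to 42.7% in Px, and all 12 were higher in Px (edgeR). Of 9 tested beta cell markers 0 were higher and 8 lower. All 7 macrophage, 6 lymphocyte and 8 fibroblast and stellate cell markers tested were higher, as were 5 of 7 duct and 5 of 6 endothelial markers. Of all genes tested 34.5% were higher and 30.2% lower in Px. The part of these marker differences in the results on the 8 genes and on the gene lists below was not tested. An acinar score was added to some fits, but the acinar shares of Sham and Px did not overlap. In a comparison with Sham the score therefore largely stood in for the operation, and a call that ended with it cannot show an acinar part. Values below are CPM, counts divided by library sizes that TMM had scaled on the assumption that most genes do not change, and changes are log2 fold changes ± standard error from edgeR's quasi-likelihood test, called at a Benjamini-Hochberg adjusted p under 0.05 over all genes tested. In bulk islet RNA, fewer alpha cells and less RNA per alpha cell cannot be told apart.

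Counts in every group cannot test the label of the set, since each acinar, duct and macrophage marker listed had them too. Each of 10 alpha cell markers, the 8 genes among them, had counts in every group. Their summed level was 7266 to 10917 CPM in Sham, 5226 to 13943 in lower-glucose Px and 11837 to 14843 in higher-glucose Px, nearly all of it from Gcg, Gc and Slc38a5. Per length (CPM per kilobase of exon, mean ± SD over the 5 Sham libraries), Gcg led at 7074 ± 1244, followed by Gc at 514 ± 69.6 and Slc38a5 at 455 ± 80.5, which did not differ beyond their spread. Far below came Irx2 at 1.91 ± 0.685, Irx1 at 1.54 ± 0.753 and Pou3f4 at 1.23 ± 0.298, whose ranges overlapped, then Ttr at 0.588 ± 0.247 and Dpp4 at 0.334 ± 0.13. In higher-glucose Px the same scale gave 10470 ± 1263 for Gcg, 877 ± 105 for Slc38a5 and 489 ± 77.9 for Gc (n = 3), so that Slc38a5 stood above Gc there without overlap. Ttr, transthyretin, is described as an alpha cell protein, but its level in these libraries was that of a scarcely read transcript: 3 to 13 counts in Sham libraries and 15 to 66 in Px libraries.

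**Figure D1:**
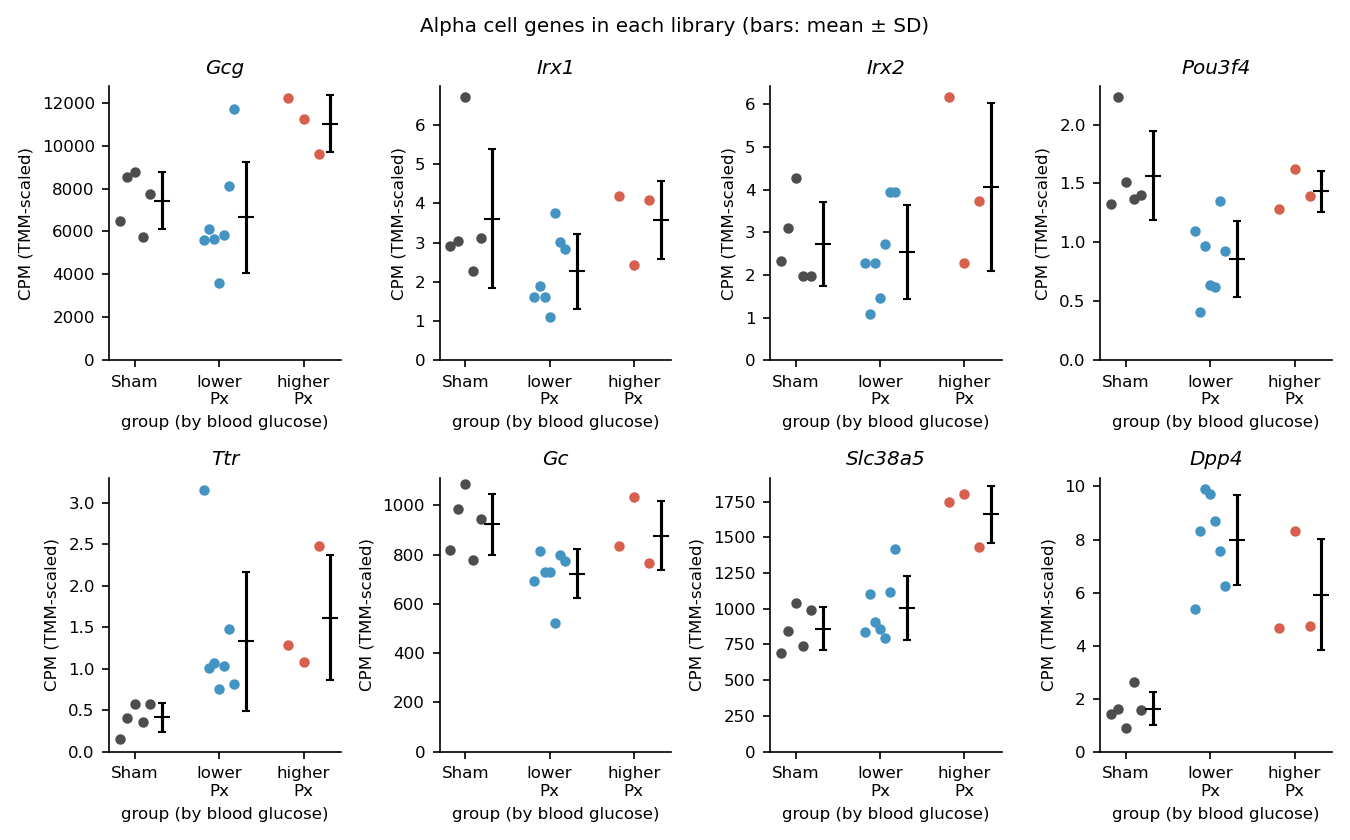
Level of each of the 8 genes (TMM-scaled CPM, linear axes from 0) in 5 Sham, 7 lower-glucose Px and 3 higher-glucose Px libraries; points are single libraries and bars the mean ± SD. Ttr and Dpp4 in every Px library lie above every Sham library, and Slc38a5 in the 3 higher-glucose libraries (1434 to 1803 CPM) lies above all others.

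Gcg (chromosome 3, 48442635 to 48451650, minus strand, in the coordinates of the count table, for which no source used here names a build) encodes the alpha cell hormone. The Sham libraries held 6475, 5728, 7724, 8756 and 8526 CPM (replicates 23 to 27). Lower-glucose Px libraries ran from 3614 through a median of 5821 to 11717 CPM, and the higher-glucose libraries held 12222, 9591 and 11231 CPM (replicates 13, 15 and 19). The 3 higher-glucose libraries all lay above the highest Sham library, whereas lower-glucose libraries lay on both sides of the Sham range. All Px differed from Sham by 0.10 ± 0.28 (adjusted p = 0.77), lower-glucose Px by −0.16 ± 0.25 (adjusted p = 0.588), and higher-glucose Px by 0.56 ± 0.31 (adjusted p = 0.136), none of which passed edgeR's test. Higher- against lower-glucose Px was 0.73 ± 0.29 (edgeR adjusted p = 0.155). The lower-glucose library with the highest Gcg, replicate 11, came from the rat with the highest glucose of that group, 211. Without it the difference between the Px groups passed (0.92, edgeR adjusted p = 0.0469), with adjusted p from 0.0469 to 0.376 over leaving out each library.

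**Figure D2:**
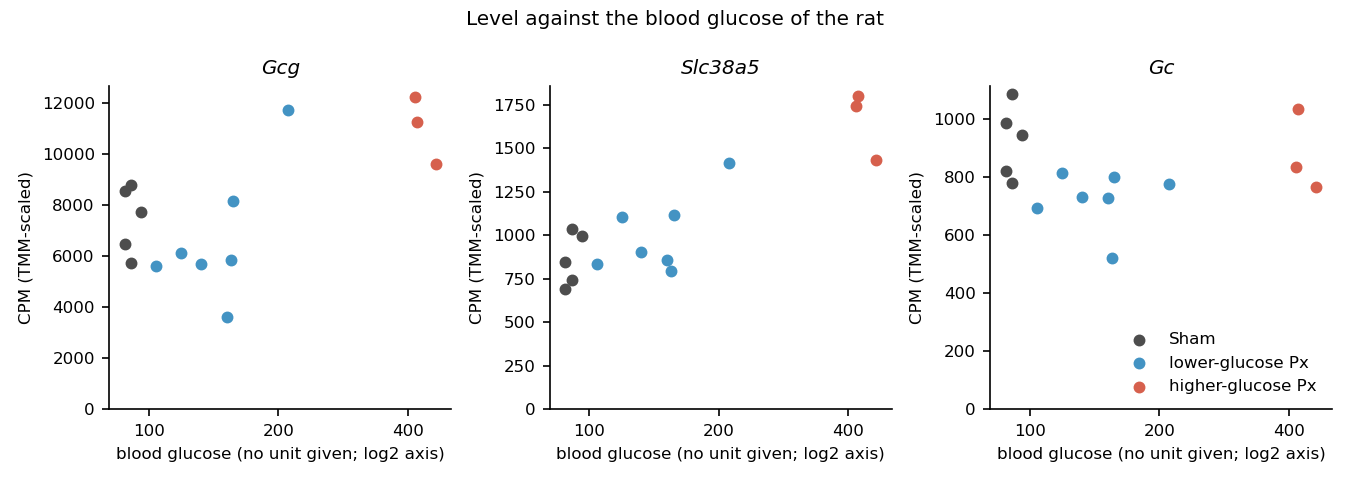
Level of Gcg, Slc38a5 and Gc (TMM-scaled CPM) against the blood glucose of each rat (log2 axis, no unit in the labels), 1 point per library. Glucose falls into separate clusters; the Px library at 211 reads 11717 CPM for Gcg, inside the 9591 to 12222 CPM of the 3 libraries at 416 to 464.

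The 3 lineage transcription factors were measured at low depth. Irx1 (chromosome 1, 33910912 to 33916741, plus strand) held 2.91, 2.27, 3.11, 6.71 and 3.04 CPM in Sham, a lowest, median and highest of 1.11, 1.89 and 3.76 CPM in lower-glucose Px, and 4.20, 4.09 and 2.43 CPM in higher-glucose Px. Irx2 (chromosome 1, 33271977 to 33275540, minus strand), its neighbour in the Iroquois family, held 2.33, 1.97, 1.97, 4.27 and 3.10 CPM in Sham, 1.08, 2.29 and 3.94 CPM as lowest, median and highest in lower-glucose Px, and 6.18, 3.74 and 2.27 CPM in higher-glucose Px. Sham replicate 26 was the highest of its group for both, and the groups overlapped for both. Neither passed edgeR's test in any group comparison: Irx1 was −0.44 ± 0.31 and Irx2 0.13 ± 0.33 for all Px against Sham (adjusted p = 0.226 and 0.742). Without lower-glucose Px replicate 8 or Sham replicate 24 Irx1 was called lower in lower-glucose Px (−0.84 and −0.80, edgeR adjusted p = 0.0268 and 0.0442, against −0.67 ± 0.32 and 0.073 with all libraries).

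Pou3f4 (chromosome X, 82143789 to 82145066, plus strand), a POU factor of the alpha lineage also known as Brn4, held 1.32, 1.36, 1.40, 1.51 and 2.24 CPM in Sham, 0.405, 0.930 and 1.36 CPM as lowest, median and highest in lower-glucose Px, and 1.28, 1.39 and 1.62 CPM in higher-glucose Px (6 to 43 counts per library in all). Of the 7 lower-glucose libraries, only replicate 10 reached into the Sham range. It fell in lower-glucose Px (−0.85 ± 0.26, edgeR adjusted p = 0.01), a call that ended with endocrine scaling, in which 8 granule genes set the library sizes (−0.19, 0.548), and with an acinar marker score in the fit (−0.78, 0.295), while all Px against Sham (−0.60 ± 0.28, adjusted p = 0.0673) and higher-glucose Px against Sham (−0.13 ± 0.33, adjusted p = 0.752) did not pass. The difference between the Px groups themselves did not pass (0.72 ± 0.31, edgeR adjusted p = 0.18). All Px against Sham passed with DESeq2 (−0.62, adjusted p = 0.0493), with limma voom (−0.65, 0.0408) and without higher-glucose replicate 19 (−0.68, edgeR adjusted p = 0.0367).

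Ttr (chromosome 18, 15532963 to 15540177, minus strand), which carries thyroxine and retinol-binding protein and is made above all by liver, held 0.159, 0.354, 0.569, 0.578 and 0.401 CPM in Sham. In lower-glucose Px its lowest, median and highest libraries were 0.755, 1.04 and 3.15 CPM, and the higher-glucose libraries held 1.28, 2.48 and 1.08 CPM. Every Px library lay above every Sham library, and Ttr rose in Px (1.75 ± 0.40, a fold of 3.37, edgeR adjusted p = 0.00106), in both lower-glucose (1.65 ± 0.42) and higher-glucose Px (1.94 ± 0.49, adjusted p = 0.00276 and 0.00305). Adding an acinar marker score to the fit gave 0.12 (edgeR adjusted p = 0.92). Of the 5 liver markers in the count table, 2 of 4 tested were higher in Px, where 34.5% of all genes tested were. These 2 were Alb, albumin, from 0.898 ± 0.418 CPM in Sham (n = 5) to 12 ± 11.7 in Px (n = 10), and Fgb, fibrinogen beta chain, from 5.09 ± 1.32 to 26.2 ± 10.5. Apoa1 (0.48 ± 0.52) and Serpina1 (0.05 ± 0.19) did not pass (edgeR adjusted p = 0.432 and 0.836). Lower-glucose replicate 14 and higher-glucose replicate 15 had the most Ttr (3.15 and 2.48 CPM) and the most Alb (34.7 and 32.6 CPM, against 10.2 CPM in the next library). Apoa2, a liver apolipoprotein, had 6 and 4 counts in these libraries and 0 in the other 13. Apoa1 was highest in replicate 15 (1.09 CPM) but not in replicate 14 (0.668 CPM). Fgb (24.7 and 29.3 CPM in replicates 14 and 15) and Serpina1 (59.6 and 61.2 CPM) did not peak in them. Both were highest in higher-glucose replicate 19 (53.6 and 69.3 CPM). The summed level of the 5 liver markers was 43.8 to 67.7 CPM in Sham, 52 to 120 in lower-glucose Px and 89.1 to 130 in higher-glucose Px. Serpina1 was the largest part of that sum in every library. Without replicates 14 and 15, an omission chosen after seeing the data, Ttr was higher in Px (1.36, edgeR adjusted p = 0.000863). Every Px library held at least 2.02 CPM of Alb and 16.7 CPM of Fgb, against at most 1.57 and 6.89 CPM in Sham. The omission therefore did not remove the difference in these 2 markers, and the part of the liver markers in the rise was not tested.

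**Figure D3:**
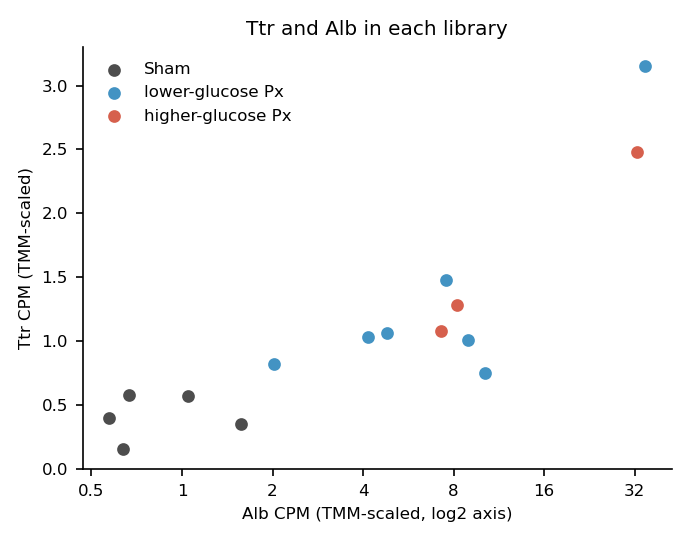
Ttr against Alb (both TMM-scaled CPM, Alb on a log2 axis), 1 point per library. Sham libraries lie lowest on both, and 2 Px libraries, at 34.7 and 32.6 CPM of Alb, lie highest on both.

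Gc (chromosome 14, 20266891 to 20302581, plus strand), the vitamin D-binding protein, held 820, 777, 945, 1085 and 986 CPM in Sham, 521, 730 and 815 CPM as lowest, median and highest in lower-glucose Px, and 834, 765 and 1034 CPM in higher-glucose Px. The lower-glucose libraries overlapped only the lower end of Sham. It fell in lower-glucose Px by 0.36 ± 0.13 (edgeR adjusted p = 0.0249), a call that ended without lower-glucose replicate 14 (adjusted p = 0.0515), Sham replicate 26 (0.0752) or Sham replicate 27 (0.0558), or with an acinar marker score in the fit (−0.53, 0.113). With endocrine scaling Gc was instead called higher in lower-glucose Px (0.30, edgeR adjusted p = 0.0088). All Px against Sham was −0.26 ± 0.13 (edgeR adjusted p = 0.0903). It passed with DESeq2 (adjusted p = 0.0415) and without higher-glucose replicate 19 (edgeR, 0.0308).

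Slc38a5 (chromosome X, 14963921 to 14972675, minus strand) encodes SNAT5, a transporter for glutamine and related amino acids. It held 689, 741, 993, 1038 and 844 CPM in Sham, 792, 904 and 1418 CPM as lowest, median and highest in lower-glucose Px, and 1746, 1434 and 1803 CPM in higher-glucose Px. The 3 higher-glucose libraries lay above every other library, and the highest lower-glucose library was again replicate 11. Slc38a5 rose in higher-glucose Px against Sham (0.94 ± 0.20, a fold of 1.92, edgeR adjusted p = 0.000771) and against lower-glucose Px (0.73 ± 0.19, a fold of 1.65, adjusted p = 0.0347). Lower-glucose Px against Sham was 0.22 ± 0.16 (edgeR adjusted p = 0.256) and all Px against Sham 0.48 ± 0.21 (0.0563). The call between the Px groups ended without lower-glucose replicate 2 or 4 (edgeR adjusted p = 0.0677 and 0.0646) or any of higher-glucose replicates 13, 15 and 19 (0.145, 0.0579 and 0.124), at values of 0.66 to 0.82. The call for all Px came about without lower-glucose replicate 2, 4, 8 or 14 or Sham replicate 26 (edgeR adjusted p = 0.0431, 0.0391, 0.0301, 0.0368 and 0.0498), with DESeq2 (0.46, 0.0349), with a filter of 1 CPM (0.50, edgeR adjusted p = 0.0466) and with endocrine scaling (1.04, 1.61e-05).

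Dpp4 (chromosome 3, 48291055 to 48372672, minus strand) encodes dipeptidyl peptidase 4, the membrane enzyme that inactivates GLP-1 and GIP and is also found on T cells, epithelia and small vessels. It held 1.43, 2.63, 1.57, 0.889 and 1.61 CPM in Sham, 5.40, 8.31 and 9.89 CPM as lowest, median and highest in lower-glucose Px, and 4.66, 4.75 and 8.33 CPM in higher-glucose Px. No Px library overlapped Sham. It rose in all Px (2.18 ± 0.26, a fold of 4.54, edgeR adjusted p = 1.93e-06), in lower-glucose Px (2.29 ± 0.25, adjusted p = 1.27e-06) and in higher-glucose Px (1.86 ± 0.29, adjusted p = 6.06e-05), and the Px groups did not differ detectably (−0.43 ± 0.27, edgeR adjusted p = 0.348). Lymphocyte markers summed to 8.2 to 14.7 CPM in Sham, 69.2 to 301 in lower-glucose and 66.8 to 91.4 in higher-glucose Px. Duct markers summed to 106 to 176 CPM in Sham, 360 to 426 in lower-glucose and 274 to 314 in higher-glucose Px, and endothelial markers to 259 to 401, 374 to 510 and 499 to 654 CPM. None of these lists had a marker at 0 throughout a group, and their part in the rise of Dpp4 was not tested.

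Across the set, 2 of 8 genes were higher and 0 lower in all Px against Sham (Ttr and Dpp4), where 34.5% of all 15199 genes tested were called higher and 30.2% lower, so the set held no more calls than its background (64.7% called in either direction). The median log2 fold change was 0.12 over the set and 0.02 over all genes tested. The libraries did not overlap for the same 2 genes, against 20.8% of all genes not overlapping upward and 16.4% downward. In lower-glucose Px 2 were higher and 2 lower (Pou3f4 and Gc), with 33.6% and 30.0% over all genes (63.5% together) and medians of −0.13 and 0.02. In higher-glucose Px 3 were higher (Ttr, Slc38a5 and Dpp4) and 0 lower, against 32.2% and 25.5% (57.7% together), with medians of 0.56 and 0.05, and the libraries of 4 did not overlap Sham upward (these 3 and Gcg), against 30.3%. By library totals the same comparison gave 0 higher and 3 lower (Irx1 −1.05, Pou3f4 −1.11 and Gc −1.05), where 11.9% of all genes were higher and 57.9% lower. With endocrine scaling it gave 6 higher, Gcg (1.0, edgeR adjusted p = 0.00289) and Irx2 (1.05, 0.0407) among them, and 0 lower, where 44.6% of all genes were higher and 6.74% lower. Both comparisons share the Sham libraries. Between higher- and lower-glucose Px 1 of 8 was called higher, Slc38a5, against 3.29% of all genes upward and 4.88% in either direction, and its libraries were the only ones of the set not to overlap (5.39% upward and 4.46% downward over all genes). The difference was positive for 7 of the 8 genes, from 0.28 for Gc to 0.73 for Gcg and Slc38a5, and negative for Dpp4, with a median of 0.66 against −0.02 over all genes.

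**Figure D4:**
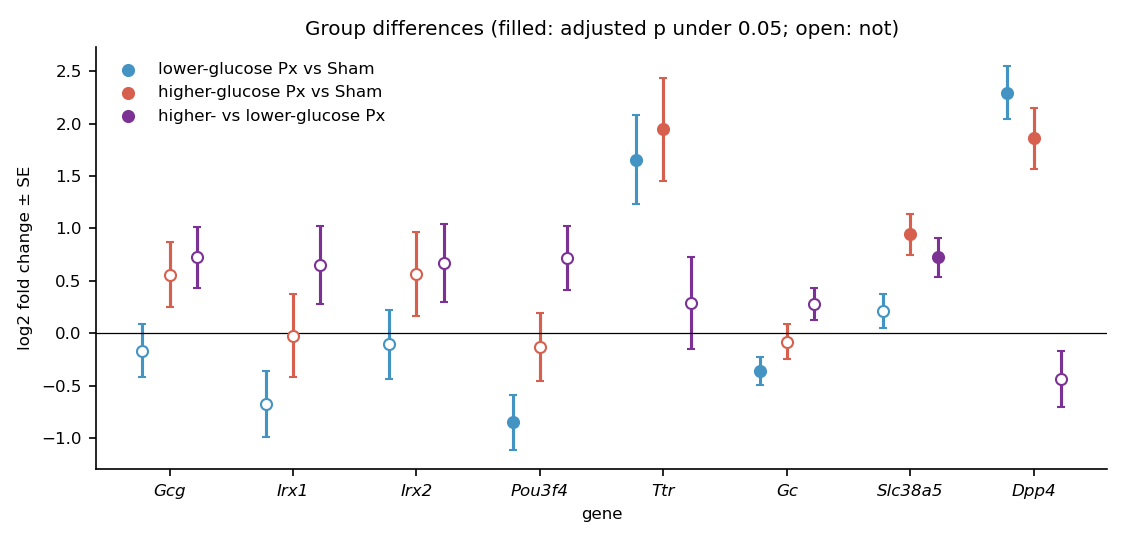
Log2 fold change ± standard error of each gene in 3 group comparisons (edgeR, 3 groups in 1 fit), filled where the adjusted p was under 0.05. Ttr and Dpp4 are filled against Sham in both Px groups, and Slc38a5 alone is filled between the Px groups (0.73).

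Within the 7 lower-glucose Px rats a slope on glucose was fitted, as the change per doubling. No gene of the set was called, as was no gene of the 13752 tested (0.00%, edgeR). At an unadjusted p under 0.05 stood 1277 genes, among them 1 of the 7 members that passed the filter on low counts. That was Ttr, at −1.59 ± 0.61 per doubling (edgeR adjusted p = 0.497), and Pou3f4 did not pass the filter. Gcg was 0.97 ± 0.53, Irx2 1.17 ± 0.60, Irx1 1.02 ± 0.64 and Slc38a5 0.57 ± 0.32 (edgeR adjusted p from 0.601 to 0.669). Dpp4 was 0.06 ± 0.44 and Gc 0.05 ± 0.30 (edgeR adjusted p = 0.985 and 0.981). Without the rat at 211 Gcg was 0.16 and Slc38a5 0.048, while Irx2 was 1.07, Irx1 1.41 and Dpp4 0.84. In that fit Gc was −0.18 and Ttr −2.05, and none was called.

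The ratio of each gene to Gcg within a library does not depend on how libraries are scaled. Per 100000 Gcg counts, Slc38a5 had 9899 to 12944 counts in Sham, 12105 to 23775 in lower-glucose Px and 14284 to 16052 in higher-glucose Px. This ratio was higher in Px by 0.42 on the log2 scale (exact two-sided permutation test, adjusted p = 0.0124 over the 7 ratios, raw p = 0.00533). Ttr had 2.86 to 7.65 counts per 100000 Gcg counts in Sham, 7.24 to 56.8 in lower-glucose and 9.88 to 26.1 in higher-glucose Px, higher by 1.67 (adjusted p = 0.00233, raw p = 0.000666, same exact permutation test). Dpp4 had 10.4 to 46.3 in Sham, 53.4 to 270 in lower-glucose and 38.4 to 74.4 in higher-glucose Px, higher by 2.18 (adjusted p = 0.00233, raw p = 0.000666, same exact permutation test). Pou3f4 was the 1 ratio that passed downward, with 17.5 to 26.6 in Sham, 7.19 to 20.1 in lower-glucose and 10.7 to 14.8 in higher-glucose Px, by −0.69 (adjusted p = 0.0227, raw p = 0.013, same exact permutation test). For Slc38a5, Ttr and Pou3f4 the higher-glucose libraries lay clear of Sham. So they did for Gc, at 6824 to 9206 against 11567 to 13574 in Sham. In CPM, rather than as ratios, 30.3% of all genes did not overlap upward and 23.9% downward between higher-glucose Px and Sham. All Px libraries together overlapped Sham in each of the 4 ratios that passed. The share of all genes whose ratio to Gcg would pass was not computed, so this count has no background. In CPM, edgeR called 64.7% of all genes in Px against Sham. The ratios of Irx1 (−0.47, adjusted p = 0.1), Gc (−0.29, 0.267) and Irx2 (0.02, 0.925) did not pass the exact permutation test. The Pou3f4 call ended without Sham replicate 24 or 27 (permutation adjusted p = 0.0542 and 0.0612), the Slc38a5 call without Sham replicate 27 (0.0536), and the Irx1 ratio passed without lower-glucose replicate 8 (−0.58, 0.0105). Leaving out Sham replicate 27 therefore left 2 of the 4 calls.

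Between higher- and lower-glucose Px none of the 7 ratios to Gcg passed (exact two-sided permutation test over 120 splits, whose smallest possible p is 0.00833). The Slc38a5 ratio differed by −0.06 (adjusted p = 1, permutation) and the Irx1, Irx2 and Pou3f4 ratios by −0.08, −0.11 and 0.01. The largest was Dpp4 at −1.26 (raw p = 0.0417, adjusted p = 0.292, permutation). Gcg relative to the summed Ins1 and Ins2 counts was 0.0514 to 0.112 in Sham and 0.0659 to 0.422 in Px, higher by 1.0 on the log2 scale (exact two-sided permutation test, p = 0.046), and in 9 of the 15 repeats that left out 1 library the p rose above 0.05, to at most 0.0979. Higher-glucose Px held 0.259 to 0.279 and lower-glucose Px 0.0659 to 0.422 (1.23, exact permutation p = 0.0583).

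The scaling of the libraries decided the sign of several values. Scaling by library totals shifted the median of all genes in Px against Sham from 0.02 to −0.62 and the share of calls that were higher from 53.3% to 25.1%, and scaling by 8 endocrine granule genes shifted them to 0.61 and 92.8%. Under TMM 0 of these 8 scaling genes were higher and 4 lower in Px. By library totals Gcg was −0.59 (edgeR adjusted p = 0.0416), near the shift of all genes, and Irx1 (−1.10, 0.00547), Pou3f4 (−1.27, 0.00191) and Gc (−0.92, 0.000394) were called lower. With endocrine scaling Gcg was 0.66 (edgeR adjusted p = 0.0157), again near the shift, Slc38a5 1.04 (1.61e-05) and Gc 0.31 (0.0057), and none was called lower. The rise of Dpp4 and Ttr in all Px passed under both (1.59 and 2.77 for Dpp4, 1.06 and 2.38 for Ttr), and for Dpp4 the acinar score left the call in place (2.53, edgeR adjusted p = 0.00173). In higher-glucose Px, library totals ended both calls, at 0.89 for Dpp4 and 0.97 for Ttr (edgeR adjusted p = 0.0695 and 0.0764). There Slc38a5 was −0.04 by library totals, against a shift of all genes to −0.96, and its difference between the Px groups was 0.24 (edgeR adjusted p = 0.44), against a shift of all genes to −0.53. With the acinar score Slc38a5 in higher-glucose Px against Sham was 0.52 (edgeR adjusted p = 0.304), and between the Px groups 0.68 (0.0393).

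**Figure D5:**
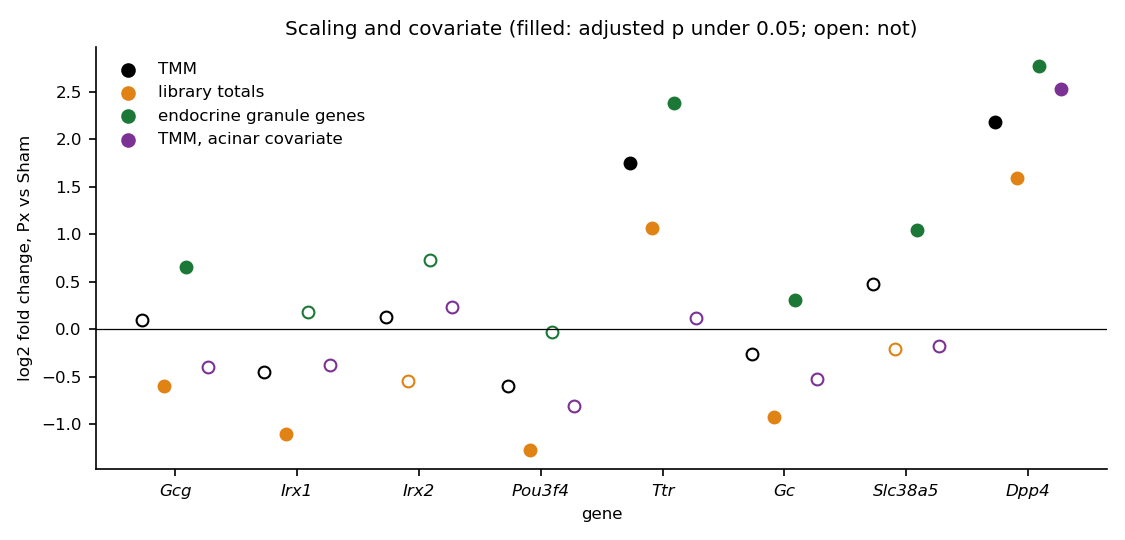
Log2 fold change of each gene in Px against Sham under TMM, library totals, endocrine granule genes, and TMM with the acinar score as a covariate, filled where the edgeR adjusted p was under 0.05. Gcg runs from −0.59 to 0.66, and Dpp4 stays between 1.59 and 2.77 and filled.

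The genes whose level was most like that of Gcg were ranked by Pearson's r of log2 CPM over the 15 libraries, among 9732 genes of at least 5 CPM. The first 5 were Ccdc126 (r = 0.874), Pappa2, a protease of IGF-binding proteins (0.867), Tnr, tenascin R (0.852), Dlat, a subunit of pyruvate dehydrogenase (0.850), and Filip1 (0.848). After the 3 group means were subtracted they were Slc7a14 (0.953), Osbp2, an oxysterol-binding protein (0.910), Pappa2 (0.892), Abcc4, an organic anion exporter (0.891), and Casr, the calcium-sensing receptor (0.882). The same libraries and scaling enter every pair, the values are descriptions, and 95% of all genes had an r below 0.509 before and 0.555 after subtraction.
Within groups Slc38a5 tracked Gcg most closely of the other members (r = 0.799, rank 31), then Irx2 (0.643) and Irx1 (0.620). Gc (0.408), Pou3f4 (0.401), Ttr (0.054) and Dpp4 (−0.449) lay between the 5% and 95% points of all genes compared (−0.499 and 0.555). Among the other pairs Irx1 went with Irx2 (0.736) and Gc with Slc38a5 (0.735), and Dpp4 against Irx1 (−0.616) and Irx2 (−0.604). No background over all genes was computed for these pairs.

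Of 12 tested transcription factors that alpha cells share with other islet cells, 3 were higher and 8 lower in Px (median −0.79), where 34.5% of all genes were higher and 30.2% lower with a median of 0.02, the background for each list that follows. The higher ones included Etv1, an ETS factor (0.79 ± 0.24), and Meis2, a TALE homeodomain factor (0.24 ± 0.08, edgeR adjusted p = 0.00922 and 0.0114). Isl1 (−1.10 ± 0.08), Pax6 (−1.07 ± 0.11) and Nkx2-2 (−1.35 ± 0.15) had the smallest p among the falls, and are made by beta cells too. Between the Px groups Etv1 was the 1 of 12 called, upward (0.94 ± 0.17, edgeR adjusted p = 0.00517, against 3.29% of all genes upward and 1.59% downward).

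Of 11 genes for proglucagon processing and granules, 1 was higher and 6 lower in Px (median −0.48). Vgf, a granule peptide precursor, was 1.29 ± 0.47, and the falls included Scg2, secretogranin 2 (−0.88 ± 0.11), Pcsk2, the convertase that yields glucagon (−0.87 ± 0.13), and Pcsk1n, an inhibitor of Pcsk1 (−1.29 ± 0.20, edgeR adjusted p of 0.0225 or below for the 4). Between the Px groups 3 of the 11 were higher and 0 lower, named after their values were seen and all 3 among the 8 genes of the endocrine scaling: Chgb, chromogranin B (0.91 ± 0.13), Scg5, the chaperone of Pcsk2 (0.91 ± 0.16), and Scg3, secretogranin 3 (0.79 ± 0.16, edgeR adjusted p of 0.0089 or below). Pcsk2 itself was −0.03 ± 0.17 there. Chgb went from 354 ± 53.1 CPM in Sham and 378 ± 44.5 in lower-glucose Px to 711 ± 97.1 in higher-glucose Px.

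Among 20 tested genes that control glucagon secretion 2 were higher and 13 lower in Px (median −0.87). Sstr2, the somatostatin receptor of alpha cells, rose (1.38 ± 0.37), and Cacna1b, an N-type calcium channel (−1.54 ± 0.12), Kcnj11, the pore of the KATP channel (−0.89 ± 0.07), and Hcn4, a pacemaker channel (−1.12 ± 0.11), fell (edgeR adjusted p of 0.00394 or below). Many of these are beta cell genes as well. Casr, which ranked among the genes most like Gcg within groups, was lower in Px against Sham (−1.58 ± 0.25) but the 1 of the 20 called higher in higher- than in lower-glucose Px (1.06 ± 0.20, edgeR adjusted p = 0.00639), at 26.6 ± 5.3, 6.75 ± 1.83 and 14.1 ± 1.65 CPM in Sham, lower- and higher-glucose Px.

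Of 12 genes for amino acid transport and use 2 were higher and 5 lower in Px (median −0.30). Slc38a3, a glutamine transporter of the family of Slc38a5 (1.94 ± 0.31), and Gls2, a glutaminase (2.36 ± 0.41), rose, and Slc7a2, a transporter of arginine and lysine (−1.37 ± 0.10), and Slc38a4 (−0.73 ± 0.15) fell (edgeR adjusted p of 0.000512 or below). None of the 12 was called between the Px groups by edgeR. Of 5 tested receptors and peptidases of proglucagon peptides, Mme, neprilysin, was higher (3.57 ± 0.65) and Glp1r (−1.61 ± 0.13) and Gipr (−0.97 ± 0.37) lower (edgeR adjusted p of 0.0289 or below), while Gcgr, the glucagon receptor, was 0.23 ± 0.21 (0.35). Of 7 tested partners and receptors for the cargo of Ttr and Gc, Stra6, a retinol receptor, was higher (5.13 ± 0.87, from 0.0694 ± 0.132 CPM in Sham to 2.59 ± 2.14 in Px) and Vdr, the vitamin D receptor (−1.37 ± 0.14), and Lrp2, megalin (−0.87 ± 0.21), lower (edgeR adjusted p of 0.00185 or below). Rbp4, the retinol carrier that binds Ttr, was −0.37 ± 0.22 (0.145). Between the Px groups Glp1r (−0.55 ± 0.13) and Vdr (−0.60 ± 0.12) were lower and Rbp4 (0.87 ± 0.17) higher in higher-glucose rats (edgeR adjusted p = 0.0198, 0.00938 and 0.00705), as the calls of these lists there. All these lists were read in bulk islet RNA, so no change in them can be assigned to alpha cells.

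In the authors' deposited table, whose contrast is unnamed and whose sign over 15179 shared genes was that of Px relative to Sham, Gcg had a log2 fold change of 0.03 (adjusted p = 0.934). Dpp4 (2.24, 1.24e-05), Ttr (1.66, 0.00335) and Pou3f4 (−0.65, 0.0409) passed 0.05 in the authors' deposited table, the last of which edgeR did not call. Slc38a5 (0.45, 0.0544), Gc (−0.27, 0.0717), Irx1 (−0.48, 0.189) and Irx2 (0.05, 0.91) did not pass in the authors' deposited table.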

How the data were processed

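Polyadenylated RNA of islets from 15 rats was sequenced (a directional kit, per the labels' protocols). The deposited table holds raw read counts per gene laid out as featureCounts writes them, per the file headers, and its length column gave the values per kilobase. FastQC, Subread, featureCounts and limma are named without versions, per the submitters' processing notes. No source used here names the build, annotation or strand setting. The authors' deposited comparison table holds log2 fold changes and average log2 expression, a linear fold (ratio), and p-values with adjusted p-values. Its log2 fold changes differed from a voom fit of the 2 operations by a median of 5.67e-05.

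Genes were kept by filterByExpr (at least 10 counts, 15 in total), scaled by TMM and tested with edgeR 4.0.16 (glmQLFit, glmQLFTest, two-sided) in R 4.3.3, adjusted over all genes. All Px was set against Sham in a model of 2 groups, and the remaining contrasts came from 1 model of 3 groups, with Px rats divided by glucose (104 to 211, 416 to 464). All 8 members passed the filter in both. Ratios used a pseudocount of 0.5. Other scalings and filters, DESeq2 1.42.0, limma 3.58.1, an acinar score and the omission of single libraries were tried, and 1 alternative was added after seeing the data. The fits of all Px against Sham and of the glucose slope were tested on simulated data, the contrasts of the 3 groups were not. Few genes changed in the simulation, in equal numbers up and down, so it cannot judge the scaling of these libraries. The members, lists and tests were chosen with earlier results of these data known. All 8 members are named. Each list is represented by up to 3 rising and 3 falling called genes of smallest p for Px against Sham, and other listed genes were named after their values were seen. Some listed genes, though counted, are not reported here. The labels give 1 library per rat. Promoter sequences come from RefSeq (GRCr8, 8 of 8 members matched). Low counts of Ttr and Pou3f4 limit their precision.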

Additional observations from a re-analysis of the deposited data

Results flagged for a closer look

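Within groups, 3 single libraries lay far from the rest by Dixon's criterion, among 16 groups of values examined, and chance picks out about 1 in 20 such groups. Gc in lower-glucose Px replicate 8 was 520.7 CPM, the lowest of the 7, with the next at 691 CPM. Irx1 in Sham replicate 26 was 6.71 CPM, with the next at 3.11 CPM. Pou3f4 in Sham replicate 27 was 2.24 CPM, with the next at 1.51 CPM. The effect of Px on Slc38a5 differed between higher- and lower-glucose rats (0.73 on the log2 scale, edgeR adjusted p = 0.0347).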

How the results depend on the processing

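No paired analysis was possible because the groups share no replicate numbers. Values are log2 differences. Of the 8 genes, library totals called 6 in Px against Sham (2 higher, 4 lower), where 69.9% of all genes were called (17.5% higher, 52.3% lower), and 0 between the Px groups (0.907% of all genes). Endocrine scaling called 5 in Px, all higher (65.1% of all genes, 60.4% higher), and 6 in higher-glucose Px, all higher (51.4%, 44.6% higher). DESeq2 called 5 in Px (3 higher, 2 lower; 66.1% of all genes). The acinar score left 1 call, Dpp4, in each comparison with Sham, against 35.8% of all genes in Px, 38.4% in lower-glucose and 26.1% in higher-glucose Px. Leaving out 1 library gave 2 to 4 calls in Px, 3 to 5 in lower-glucose Px, 3 in higher-glucose Px and 0 to 2 between the Px groups, and leaving out both albumin-rich libraries, chosen after seeing the data, gave 0 there. The share of all genes called was not computed for the fits that left out libraries, so these counts have no background.

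By library totals signs turned for Gcg (−0.59), Irx2 (−0.55) and Slc38a5 (−0.21) in Px, Slc38a5 (−0.28) in lower-glucose Px, Gcg (−0.44), Irx2 (−0.52) and Slc38a5 (−0.043) in higher-glucose Px, and Ttr (−0.13) and Gc (−0.19) between the Px groups. With endocrine scaling they turned for Irx1 (0.19) and Gc (0.31) in Px, Gcg (0.48), Irx1 (0.048), Irx2 (0.57) and Gc (0.30) in lower-glucose Px, Irx1 (0.47), Pou3f4 (0.30) and Gc (0.34) in higher-glucose Px, and the slopes of Gc (−0.15) and Dpp4 (−0.079). With the acinar score they turned for Gcg (−0.40) and Slc38a5 (−0.18) in Px, Irx2 (0.39) and Slc38a5 (−0.16) in lower-glucose Px, and Irx1 (0.42) in higher-glucose Px. Irx1 in higher-glucose Px was 0.0055 with a filter of 1 CPM and 0.036 with limma voom, Gc there 0.032 without the albumin-rich libraries, and the Pou3f4 to Gcg ratio between the Px groups −0.11 with a pseudocount of 5. Apart from the shifts that scaling itself makes, the cause was not tested.

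Leaving out single libraries turned signs within these ranges. Irx2 was −0.033 to 0.35 in Px and −0.24 to 0.12 in lower-glucose Px. In higher-glucose Px Irx1 was −0.15 to 0.33, Pou3f4 −0.23 to 0.029 and Gc −0.21 to 0.012. Ttr between the Px groups was −0.17 to 0.66, and the Gc slope −0.18. The Irx2 to Gcg ratio in Px was −0.10 to 0.13. Between the Px groups the ratio to Gcg was −0.29 to 0.19 for Irx1, −0.39 to 0.27 for Irx2, −0.14 to 0.16 for Pou3f4 and −0.12 to 0.044 for Slc38a5. The ratios called in Px numbered 2 to 5, with no share over all genes computed. Gcg to insulin was 0.83 to 1.15 in Px and 1.09 to 1.54 between the Px groups (exact permutation p = 0.0119 without lower-glucose replicate 11).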
